A study of Homo sapiens with 10 samples.

Results

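SHANK1, SHANK2 and SHANK3 are the 3 members of the SHANK family of synaptic scaffold genes. Their MeDIP peaks were taken from every list that matched a sample, wherever a peak overlapped the GRCh38 gene body or the 2 kb on either side. They held 137 of the 284960 peaks on chromosomes 1 to 22 and X: 22 in K-KD, 20 in K rep KO, 20 in K non-rep KO, 66 in EV and 9 in WT. The family was selected on measured values: SHANK2 was chosen by its low number of peaks in K rep KO beside K non-rep KO, and SHANK1 and SHANK3 are its paralogs on other chromosomes. The numbers of that contrast, and those of SHANK2 in either knockout against WT, are therefore given as a description, and nothing is read from them.

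DNA methylation was profiled in HEK293T, a human embryonic kidney cell line, by capturing sonicated genomic DNA with an antibody against 5-methylcytosine (MeDIP-seq). The lists were labelled KD, K rep KO, K non-rep KO, EV and WT. The design text gives the knockdown as KCNQ1OT1_K, a target named after KCNQ1OT1, the long non-coding RNA of an imprinted domain on chromosome 11, and the KD list is called K-KD here. The labels do not spell out K, rep, non-rep or EV, nor whether a knockout was 1 clone or a pool. Each condition had 1 immunoprecipitated and 1 input library, which leaves every value without a replicate check and allows no test across samples.

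SHANK proteins are large scaffolds of the postsynaptic density, the protein layer under the membrane of excitatory synapses. They tie glutamate receptor complexes, through DLGAP and DLG proteins and through Homer proteins, to the actin cytoskeleton, and mutations of the genes are known in autism spectrum disorder. Methylated cytosines are common within gene bodies, and the SHANK genes use internal start sites, so peaks inside the gene are of as much interest as those at its start. HEK293T cells are no neurons and form no synapses.

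The lists held 53919 peaks in K-KD, 59098 in K rep KO, 53396 in K non-rep KO, 87815 in EV and 30732 in WT. Read counts are not part of these lists, but the authors' fold enrichment and p-value of a peak could be solved for the whole number of reads piled up at its summit. This worked for 99.9% to 100.0% of a list's peaks and for all 137 SHANK peaks. The most frequent background, read as the genome-wide level, was 1.34 reads in K-KD, 1.24 in K rep KO, 1.02 in K non-rep KO, 1.43 in EV and 1.29 in WT. Over that level a peak needed at least 5 reads in K non-rep KO and at least 6 in the other lists.

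SHANK2 (gene ID 22941; chromosome 11, 70467854 to 71253234) is the longest of the genes at 785381 bp. It held 13 peaks in K-KD, 6 in K rep KO, 17 in K non-rep KO, 47 in EV and 6 in WT. EV stood far above the rest, and K rep KO and WT were lowest with the same number. SHANK3 (gene ID 85358; chromosome 22, 50672823 to 50733212), whose loss is known in Phelan-McDermid syndrome, held 5 in K-KD, 11 in K rep KO, 3 in K non-rep KO, 12 in EV and 3 in WT. For SHANK3 the high lists were EV and K rep KO. SHANK1 (gene ID 50944; chromosome 19, 50659255 to 50719802) held 4 in K-KD, 3 in K rep KO, 0 in K non-rep KO, 7 in EV and 0 in WT.

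**Figure D1:**
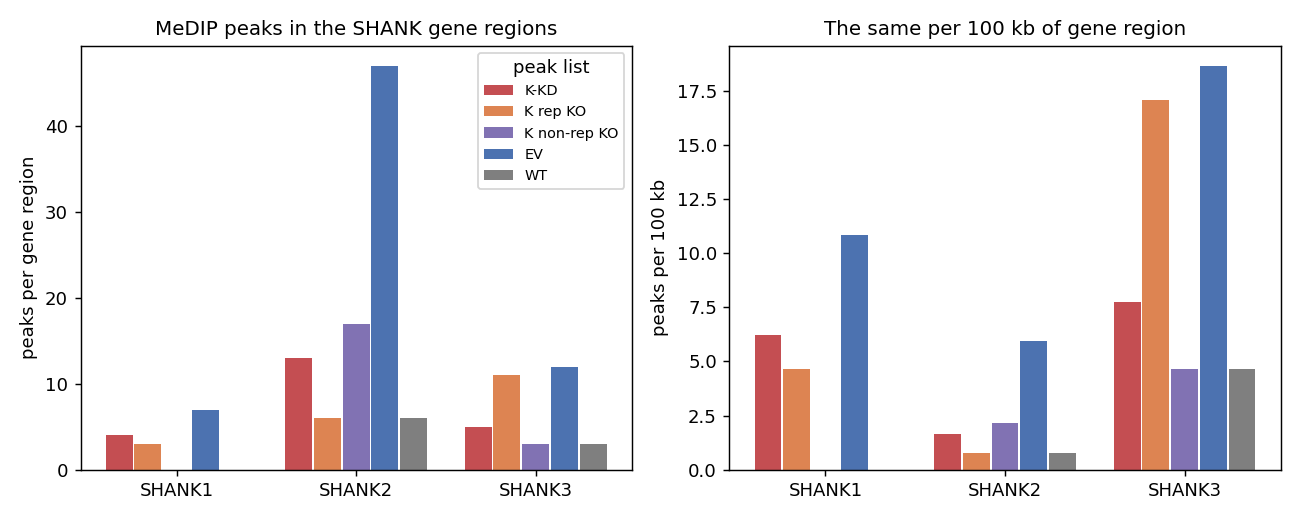
Bars give the number of MeDIP peaks overlapping each SHANK gene region (left, peaks) and the number per 100 kb of region (right), 1 list per bar and no replicates. EV is highest for every gene, SHANK2 leads in number with 47 peaks and SHANK3 leads per length with 18.6 per 100 kb.

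SHANK3 was the densest of the 3 genes in every list. Per 100 kb of gene region SHANK3 held 7.77 peaks in K-KD, 17.1 in K rep KO, 4.66 in K non-rep KO, 18.6 in EV and 4.66 in WT. SHANK2 held 1.65 in K-KD, 0.76 in K rep KO, 2.15 in K non-rep KO, 5.95 in EV and 0.76 in WT. Beside the 6258 protein-coding genes of at least 50 kb, SHANK3 stood above 91.3% in K-KD, 98.4% in K rep KO, 83.5% in K non-rep KO, 96.2% in EV and 93.4% in WT. SHANK2 stood nearer the middle, above 58.8% of these genes in K-KD, 37.1% in K rep KO, 65.3% in K non-rep KO, 76.2% in EV and 58.3% in WT. SHANK1 stood above 88.0% of them in K-KD, above 80.8% in K rep KO and above 89.3% in EV, and held no peak in K non-rep KO or WT. Over all 19974 protein-coding genes SHANK3 stood lower, above 78.1% in K-KD, 92.4% in K rep KO, 69.6% in K non-rep KO, 86.9% in EV and 85.5% in WT. Its surroundings were rich in peaks too. Within 1 Mb of the gene regions there were more peaks around SHANK3 than around SHANK2 in every list, with 244 and 144 in EV. Peaks covered 3.17% of the SHANK2 region and 12.3% of the SHANK3 region in EV.

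No peak lay at the start of SHANK3 in any list. The 250 bases before its first transcribed base (RefSeq, GRCh38.p14, plus strand, chr22:50672573-50672822) are shown because all SHANK3 peaks lay further inside the gene, with CG dinucleotides, the sites that carry the mark, in capitals.
SHANK3: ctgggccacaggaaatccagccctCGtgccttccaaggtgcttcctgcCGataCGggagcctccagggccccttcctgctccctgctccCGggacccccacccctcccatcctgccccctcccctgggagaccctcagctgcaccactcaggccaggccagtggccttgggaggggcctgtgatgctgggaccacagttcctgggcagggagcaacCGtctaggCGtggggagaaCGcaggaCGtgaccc
This window holds 8 CG, and 56.3% of the 35116 RefSeq start windows of that length hold as many or more. The nearest peak began 3308 bp away in EV, and lay 5242 bp away in K non-rep KO, 6394 bp in K rep KO, 12910 bp in WT and 13064 bp in K-KD, where it lay upstream of the gene region. A start window without a peak was the common case. Of 22132 start windows of protein-coding genes, 2.50% were touched by peaks of K-KD, 2.49% by those of K rep KO, 2.00% by those of K non-rep KO, 4.12% by those of EV and 0.669% by those of WT.

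SHANK2 contains SHANK2-AS1, a long non-coding RNA read from the opposite strand (chromosome 11, 70626564 to 70635490). Its body held 1 peak in K rep KO and 2 in EV, and 0 in K-KD, K non-rep KO and WT. The 250 bases before its second listed start (RefSeq, GRCh38.p14, plus strand, chr11:70630844-70631093) are the start window closest to those peaks, 658 bp from the nearest peak in EV and 1603 bp in K rep KO, with CG in capitals.
SHANK2-AS1: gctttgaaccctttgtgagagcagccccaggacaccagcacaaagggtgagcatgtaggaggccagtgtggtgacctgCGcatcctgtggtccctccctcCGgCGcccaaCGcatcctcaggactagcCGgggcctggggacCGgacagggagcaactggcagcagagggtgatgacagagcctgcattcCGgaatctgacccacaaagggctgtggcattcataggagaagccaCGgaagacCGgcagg
This window holds 9 CG, and 54.1% of the start windows hold as many or more. SHANK2-AS3 and MIR3664, the other non-coding genes inside SHANK2, held no peak in any list.

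Along SHANK2 the EV peaks were spread over the whole gene, whereas the WT peaks kept to the side of high coordinates. Below the midpoint there were 6 peaks in K-KD, 2 in K rep KO, 9 in K non-rep KO, 27 in EV and 0 in WT. Above the midpoint there were 7 peaks in K-KD, 4 in K rep KO, 8 in K non-rep KO, 20 in EV and all 6 of WT. A stretch of 111 kb (70947002 to 71058337) had no peak in any list, in a region of 789 kb. In SHANK1 the longest empty stretch was 34.9 kb in the middle of the gene, and in SHANK3 it was 5.65 kb.

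**Figure D2:**
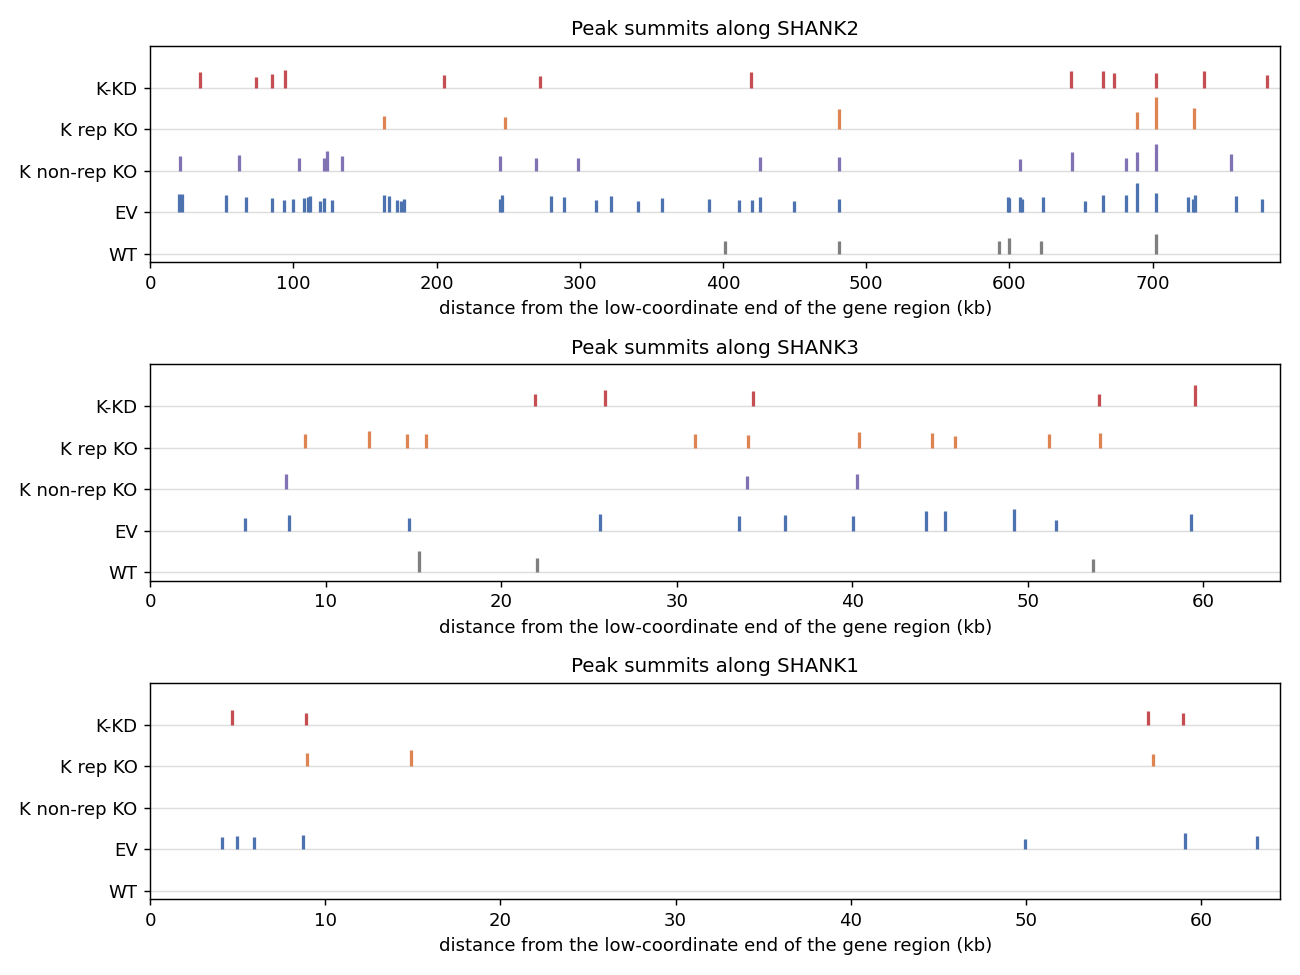
Each tick is the summit of 1 peak, placed by its distance in kb from the low-coordinate end of the gene region, in rows for the 5 lists; tick height grows with the authors' fold enrichment. In SHANK2 the K-KD, K rep KO, K non-rep KO, EV and WT rows meet at a summit near 702 kb, and the WT row is empty below the midpoint.

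Merging overlapping peaks gave 67 regions in SHANK2, of which 51 were in 1 list alone, 13 in 2 lists and 3 in more. Merged in the same way over all chromosomes, 56.5% of 144156 regions were in 1 list alone and 19.7% in 2 lists. Of the SHANK2 regions in 1 list alone, 31 came from EV, 8 from K-KD, 8 from K non-rep KO, 3 from WT and 1 from K rep KO. EV was the longest list, and the split by list over all chromosomes was not counted, so nothing is read from these numbers. SHANK3 had 17 regions, of which 6 were in 1 list, 7 in 2, 3 in 3 and 1 in 4. SHANK1 had 9 regions, with 5 in 1 list, 3 in 2 and 1 in 3.

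The SHANK2 region at 71167464 to 71168741 was the only SHANK region with a peak in all 5 lists. Its summit held 27 reads in K-KD, 23 in K rep KO, 31 in K non-rep KO, 30 in EV and 28 in WT. Divided by the genome-wide background of each list these were 20.2 in K-KD, 18.5 in K rep KO, 30.4 in K non-rep KO, 20.9 in EV and 21.7 in WT, so K non-rep KO was highest and the other lists lay close together. The authors' fold enrichment at this site, which also depends on the local background, was 3.88 in K-KD, 10.4 in K rep KO, 8.36 in K non-rep KO, 5.62 in EV and 5.93 in WT. The local background was 6.21 reads in K-KD, 1.3 in K rep KO, 2.83 in K non-rep KO, 4.51 in EV and 3.89 in WT, so the fold was highest where the background was lowest. Only 5.23% of the K rep KO peaks and 4.43% of the K non-rep KO peaks had a higher −log10 q than this one.

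A further SHANK2 region, 70946048 to 70947001, had a peak in K rep KO, K non-rep KO, EV and WT and none in K-KD. Its summit held 13 reads in K rep KO, 9 in K non-rep KO, 12 in EV and 19 in WT. The region at 71154646 to 71155542 had 10 reads in K rep KO, 14 in K non-rep KO and 22 in EV, with no peak in K-KD or WT. In SHANK3 the most recurrent region, 50704247 to 50705550, had 9 reads in K-KD, 9 in K rep KO, 7 in K non-rep KO and 9 in EV, and no peak in WT. These SHANK3 summits were within a few reads of the lowest pileup that made a peak.

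Most SHANK peaks were shallow. The median summit of the SHANK2 peaks held 10 reads in K-KD, 11.5 in K rep KO, 8 in K non-rep KO, 11 in EV and 9.5 in WT. Over all peaks the median was 11 in K-KD, 12 in K rep KO, 10 in K non-rep KO, 12 in EV and 14 in WT. A −log10 q of 5 or more was reached by 2 of the 13 SHANK2 peaks in K-KD, 3 of 6 in K rep KO, 4 of 17 in K non-rep KO, 10 of 47 in EV and 1 of 6 in WT. In SHANK3 it was reached by 1 of 5 in K-KD, 0 of 11 in K rep KO, 0 of 3 in K non-rep KO, 4 of 12 in EV and 1 of 3 in WT. No SHANK1 peak reached it.

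**Figure D3:**
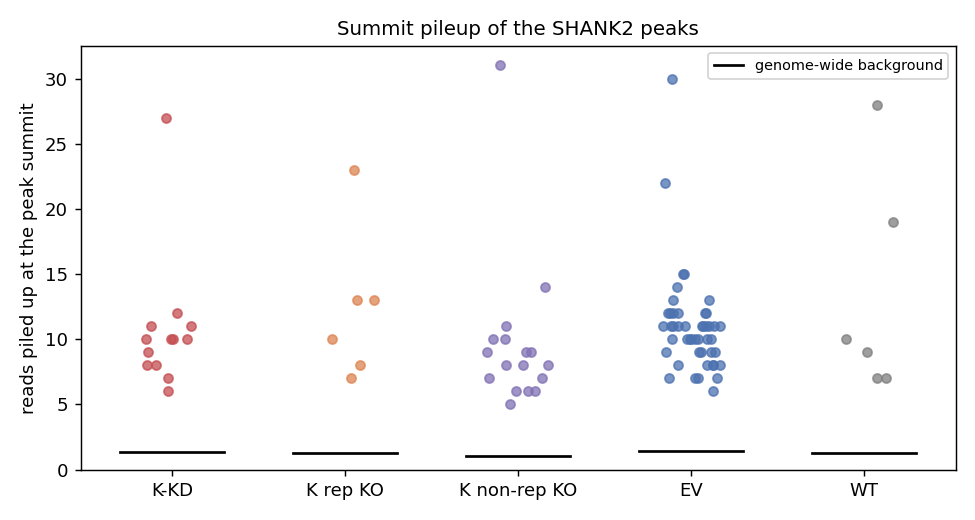
Each point is 1 SHANK2 peak, with the number of reads piled up at its summit on the y axis, by list; points are spread sideways for sight, and the black bars mark the genome-wide background of each list (1.02 to 1.43 reads). Most points lie between 5 and 15 reads, and the site shared by all lists lies between 23 and 31.

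Peak numbers were then compared between conditions, as the ratio of the numbers with an exact (Clopper-Pearson) 95% interval. The relative ratio divides this by the ratio over all peaks of the lists, so that 1 means a gene moved with all peaks of its lists. These intervals cover counting error only, and are too narrow because neighbouring peaks are not independent. A gene was called where both lists together held at least 5 peaks and (peaks + 1)/(peaks + 1), divided in the same way, was past 2-fold.

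In the knockdown SHANK2 held 13 peaks in K-KD, against 47 in EV. The ratio was 0.277 (0.137 to 0.52) and the relative ratio 0.45 (0.224 to 0.846), since the ratio over all peaks of both lists was 0.614. SHANK2 was called lower, as were 6.06% of the 6073 genes with enough peaks, while 8.76% were called higher. SHANK3, with 5 peaks in K-KD and 12 in EV, had a relative ratio of 0.679 (0.187 to 2.07). SHANK1, with 4 in K-KD and 7 in EV, had one of 0.931 (0.20 to 3.66). Neither paralog was called, and their intervals hold that of SHANK2. With every list cut to its 30732 strongest peaks, those of highest −log10 q, SHANK2 held 7 in K-KD and 7 in EV, which ended the call. The call also ended with −log10 q of 5 or more (2 in K-KD and 10 in EV), with fold enrichment of 4 or more (7 in K-KD and 24 in EV) and with peaks within 1 kb joined (13 in K-KD and 41 in EV). At these settings in turn the relative ratio was 0.436, 0.523 and 0.50, near the reported one. With 1 added to each number it was 0.595, 0.574 and 0.526, short of the 2-fold cut.

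The SHANK2 peaks of K-KD and EV overlapped each other less often than all peaks of these lists did, on small numbers. Of the 13 K-KD peaks in SHANK2, 5 (38.5%) overlapped an EV peak, where 58.3% of all K-KD peaks did. Of the 47 EV peaks 10.6% overlapped a K-KD peak, where 35.2% of all EV peaks did. The SHANK2 peaks of EV were also weaker, with a median −log10 q of 3.70, against 4.46 over the EV list. The part of peak strength in the overlap was not tested. The 96 K-KD and 144 EV peaks within 1 Mb on either side of SHANK2 gave a relative ratio of 1.09 (0.83 to 1.42). The ratio of SHANK2 was 0.415 times that of these surroundings. Nearby, NADSYN1, an enzyme gene of NAD synthesis, had 10 peaks in K-KD, against 8 in EV. ANO1, a chloride channel gene, had 11 in K-KD, against 28 in EV, and PPFIA1, a liprin scaffold gene, had 7 in K-KD, against 13 in EV. The ratios of the paralogs were 0.547 (SHANK3) and 0.882 (SHANK1) times those of their own surroundings. The relative ratios of these surroundings were 1.24 around SHANK3 and 1.05 around SHANK1. Both values lie within the intervals of the genes, so neither paralog is shown to differ from its surroundings. SHANK3 lies near the end of chromosome 22, so its surroundings reach less than 1 Mb on the upper side.

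Against WT, K rep KO held 6 peaks in SHANK2 and WT 6, a relative ratio of 0.52 (0.139 to 1.95). The K rep KO number is among those SHANK2 was picked on. SHANK3 held 11 in K rep KO and 3 in WT, a relative ratio of 1.91 (0.504 to 10.6). SHANK1 held 3 in K rep KO and 0 in WT, too few for a fold. None of the genes was called, where 12.8% of 3443 genes were called higher and 8.54% lower. The 1 Mb on either side of SHANK2 had a relative ratio of 0.54 (0.303 to 0.963). The rest of chromosome 11 had one of 0.532 (0.492 to 0.575). With −log10 q of 5 or more SHANK2 held 3 in K rep KO and 1 in WT, which turned its relative ratio to 1.72. The value for SHANK3 turned round among the 30732 strongest peaks, where it held 1 in K rep KO and 3 in WT, and with −log10 q of 5 or more, where it held 0 in K rep KO and 1 in WT.

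K non-rep KO held 17 peaks in SHANK2 and WT 6, a relative ratio of 1.63 (0.613 to 5.05). It was 1 among the 30732 strongest peaks, with 6 in K non-rep KO, against 6 in WT, and 3.01 with −log10 q of 5 or more, with 4 in K non-rep KO, against 1 in WT. SHANK3 held 3 in K non-rep KO, against 3 in WT, a relative ratio of 0.576 (0.0771 to 4.30), and SHANK1 held none in either. No SHANK gene was called, where 12.6% of 3235 genes were called higher and 10.3% lower. The 1 Mb on either side of SHANK2 had a relative ratio of 1.86 (1.19 to 3.01), and the rest of chromosome 11 had 0.954 (0.889 to 1.02). Both knockouts were set against the same WT list, so these comparisons are not independent. The SHANK2 numbers of both knockouts are also those it was picked on, low in K rep KO and high in K non-rep KO. Its ratios to WT are thus a description, and nothing is read from them.

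Between the knockouts SHANK2 held 6 peaks in K rep KO, against 17 in K non-rep KO, the difference it was picked for (relative ratio 0.319, 0.103 to 0.848). SHANK3 held 11 in K rep KO, against 3 in K non-rep KO, for a relative ratio of 3.31 (0.875 to 18.5), and SHANK1 held 3 in K rep KO, against 0 in K non-rep KO. The interval of SHANK3 holds 1. Over all 4651 genes with enough peaks 5.65% were past the lower and 7.03% past the higher fold, and since the family was picked on this contrast nothing is read from where its members stand. Among the 30732 strongest peaks SHANK2 held 4 in K rep KO, against 6 in K non-rep KO, and SHANK3 held 1 in each, neither past 2-fold by the rule above. Nor was either past it with fold enrichment of 4 or more or with −log10 q of 5 or more.

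The surroundings of the SHANK genes are given for this contrast as a description too. Nothing is read from how the genes stand beside them. Within 1 Mb on either side of SHANK2 there were 27 peaks in K rep KO, against 84 in K non-rep KO, for a relative ratio of 0.29 (0.181 to 0.453). The ratio of SHANK2 was 1.10 times that of these surroundings, and 0.571 times that of the rest of chromosome 11, which held 1315 peaks in K rep KO, against 2129 in K non-rep KO. Of the 10 nearest protein-coding genes 7 held fewer peaks in K rep KO, none held more, and 3 keratin-associated genes held none in either. PPFIA1 held 0 peaks in K rep KO, against 7 in K non-rep KO, and NADSYN1 held 2 in K rep KO, against 6 in K non-rep KO. CTTN, which codes for the actin-binding SHANK partner cortactin, held 2 in K rep KO, against 4 in K non-rep KO. Around SHANK3 the peaks were 214 in K rep KO, against 175 in K non-rep KO, for a relative ratio of 1.10 (0.901 to 1.36), and the ratio of SHANK3 was 3.0 times that of its surroundings. Around SHANK1 they were 163 in K rep KO, against 119 in K non-rep KO, for a relative ratio of 1.24 (0.971 to 1.58). Of the 10 protein-coding genes nearest SHANK1, 2 held fewer peaks in K rep KO and 6 held more. Of the 7 nearest SHANK3, 2 held fewer and 3 held more. The shares of all protein-coding genes with fewer or more peaks were not counted.

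**Figure D4:**
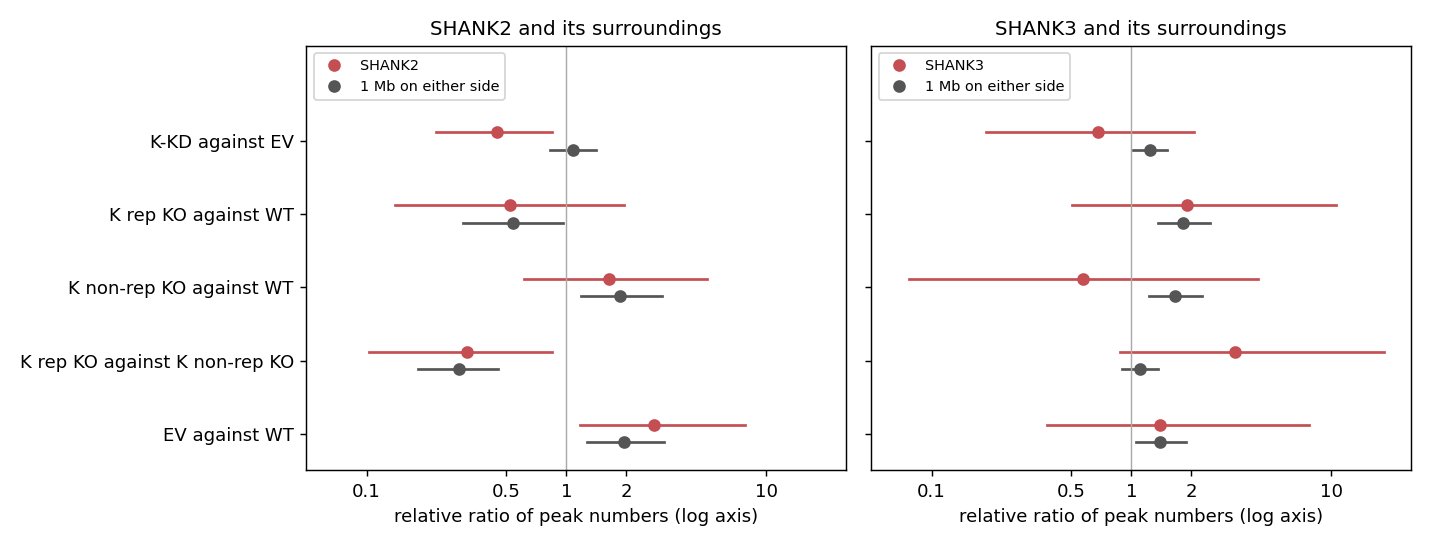
Points give the relative ratio of peak numbers (log axis) in SHANK2 (left) and SHANK3 (right) and in the 1 Mb on either side of them, for each comparison. The surroundings of SHANK3 are cut short by the end of chromosome 22. Lines are exact 95% intervals that cover counting error only. Between the knockouts, the contrast SHANK2 was picked on, the values were 0.319 for SHANK2 and 0.29 for its surroundings. In K-KD against EV they were 0.45 and 1.09, and for SHANK3 and its surroundings 0.679 and 1.24.

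The local background differed on chromosome 11 in the same list. Relative to the genome-wide level, the median background under the chromosome 11 peaks of K rep KO was 1.04, and 1.49 under its peaks elsewhere. On chromosome 11 and elsewhere in turn it was 1.2 and 1.33 in K-KD, 1.11 and 1.28 in K non-rep KO, 1.25 and 1.39 in EV, and 1.82 and 1.82 in WT. Its part in the SHANK2 numbers was not tested.

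Of the 5 comparisons, EV against WT had the highest SHANK2 ratio. SHANK2 held 47 peaks in EV and 6 in WT, a ratio of 7.83 (3.34 to 22.4) and a relative ratio of 2.74 (1.17 to 7.85). SHANK2 was called higher, as were 18.4% of 4964 genes, while 14.1% were called lower. SHANK1 held 7 in EV and 0 in WT, at least 2.33-fold higher by a floor of 3 peaks for WT. Relative to the lists that bound is 0.817, so SHANK1 is not shown to be higher than its lists, and it had enough peaks only through EV. SHANK3, with 12 in EV and 3 in WT, had a relative ratio of 1.40 (0.378 to 7.73). The surroundings of SHANK2 leaned the same way, with 144 peaks in EV and 26 in WT and a relative ratio of 1.94 (1.27 to 3.07), but the rest of chromosome 11 had one of 0.959 (0.899 to 1.02). The ratio of SHANK2 was 1.41 times that of the 1 Mb on either side and 2.86 times that of the rest of the chromosome. Among the 30732 strongest peaks SHANK2 held 7 in EV and 6 in WT, which ended the call, and SHANK1 held 0 in EV and 0 in WT. The SHANK2 call also ended with −log10 q of 5 or more, where it held 10 in EV and 1 in WT. Its relative ratio there was 3.64, no lower than the reported value. The call ended because the value with 1 added to each number was 1.9998, just short of 2.

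Genes of the SHANK pathway were described in 4 lists of 49 genes in all. The lists were SHANK-binding scaffold partners, SHANK-linked actin and signalling genes, glutamate receptor genes and synaptic adhesion genes. All 49 are called partners for short, whether or not they bind SHANK proteins. In K-KD against EV, 27 of them had enough peaks. Of these 2 were called higher and 0 lower, where 8.76% and 6.06% of all genes tested were, with a median relative ratio of 0.905 beside 1.09 over all genes tested. The called genes were ARHGEF7, an activator of small GTPases, and the glutamate receptor gene GRIN3B, with 3 peaks in K-KD and 2 in EV each. The lowest were NRXN3, a presynaptic adhesion gene, with 3 in K-KD and 10 in EV, and DLG2, a MAGUK scaffold gene, with 1 in K-KD and 4 in EV.

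In K rep KO against WT, 18 partners had enough peaks, with 1 called higher and 3 lower, where 12.8% and 8.54% of all genes tested were, and a median of 0.867 beside 0.936. BAIAP2, an actin regulator that binds SHANK proteins, had 21 peaks in K rep KO, against 1 in WT, and HOMER2, a gene of the Homer scaffolds, had 6 in K rep KO, against 1 in WT. DLGAP2, a scaffold gene that links SHANK to DLG proteins, held 8 in K rep KO and 10 in WT, and ARHGAP44 held 3 in K rep KO and 4 in WT. In K non-rep KO against WT, 20 had enough peaks, with 2 called higher and 3 lower, where 12.6% and 10.3% of all genes tested were, and a median of 1.06 beside 0.959. BAIAP2 held 17 peaks in K non-rep KO, against 1 in WT, and HOMER2 held 6 in K non-rep KO, against 1 in WT. DLGAP2 held 7 in K non-rep KO, against 10 in WT, and ARHGAP44 held 2 in K non-rep KO, against 4 in WT. The WT list is shared.

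Between the knockouts 22 partners had enough peaks, 1 was called higher and 1 lower, where 7.03% and 5.65% of all genes tested were, and the median was 0.904 beside 0.979. LRRTM4, an adhesion gene, held 4 peaks in K rep KO, against 1 in K non-rep KO, and ARHGAP44 held 3 in K rep KO, against 2 in K non-rep KO. DLG2, with 1 in K rep KO, against 4 in K non-rep KO, and CTTN, with 2 in K rep KO, against 4 in K non-rep KO, were the lowest named, and NRXN2, an adhesion gene, had the same numbers as CTTN. HOMER1 and GRIN1 had the same numbers as ARHGAP44. In EV against WT, 22 had enough peaks, with 3 called higher and 3 lower, where 18.4% and 14.1% of all genes tested were, and a median of 0.948 beside 0.933. BAIAP2 held 37 in EV and 1 in WT, and GRIN1, the obligatory NMDA receptor subunit gene, 11 in EV and 0 in WT. By a floor of 3 peaks for WT, GRIN1 was at least 3.67-fold higher, or 1.28-fold relative to the lists. DLGAP2 held 8 in EV and 10 in WT, and DLGAP1 held 8 in EV and 7 in WT. Against WT, BAIAP2 and HOMER2 had enough peaks only through the other list, as did GRIN1 in EV against WT. LRRTM4 and DLG2 had enough only through the list where they held 4. Nothing is read from these values.

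The genes most like SHANK2 over the 5 lists were found by the Euclidean distance between log2 (peaks + 1) per 10000 peaks of a list. NFATC1, a transcription factor gene of chromosome 18, was nearest at a distance of 0.97, with 13 peaks in K-KD, 12 in K rep KO, 15 in K non-rep KO, 37 in EV and 6 in WT. LRP5, a Wnt co-receptor gene of chromosome 11, followed at 0.992, with 22 in K-KD, 9 in K rep KO, 19 in K non-rep KO, 40 in EV and 8 in WT. AOPEP, on chromosome 9, stood at 1.13, as did KCNQ1, the potassium channel gene that contains KCNQ1OT1, and TNRC18, on chromosome 7, at 1.15. KCNQ1 held 14 peaks in K-KD, 9 in K rep KO, 11 in K non-rep KO, 45 in EV and 3 in WT. These genes were picked for their likeness over the same lists, so that likeness is no finding.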

How the data were processed

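HEK293T MeDIP-seq libraries were represented by 1 deposited peak list per condition; the design is 5 conditions with 1 immunoprecipitated and 1 input library each, 10 samples in all. Bowtie2, MACS2, deepTools and GRCh38 are named per the submitters' processing notes. Versions, settings and the control used were not given in the sources used here. For each peak the authors gave a fold enrichment, the ratio of summit pileup to local background. They also deposited its −log10 p and −log10 q. The deposited score tracks −log10 q and was not used. The per-peak values are the authors' and serve only within a list. There was 1 further list whose name matched no sample, and it was not used. Lists of the knockouts carry other prefixes in their peak names, so their conditions rest on the lists' names.

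Python 3.11.15 with numpy 2.4.6, scipy 1.17.1 and pandas 2.3.3 was used. Coordinates are 1-based. Peaks outside chromosomes 1 to 22 and X, 3.56% to 5.83% of a list, were left out. Gene positions came from a RefSeq table of GRCh38.p14 (19974 protein-coding genes), in which all members and partners were found. Start windows are the 250 bases before RefSeq starts; the table used holds SHANK3 and SHANK2-AS1. A peak was counted with at least 1 bp of overlap. Pileup was solved from fold = (pileup + 1)/(background + 1) and the Poisson upper-tail p, matched within 0.001 in −log10 p. Named partners are those with the 2 lowest and 2 highest ratios per comparison among those with at least 5 peaks. Members and lists were chosen with earlier results of these data known. Counting was checked against a direct count on the WT list, and calls and the pileup solution were tested on simulated data. The simulated counts were independent, with changes planted only in genes of many peaks. Recovery there does not carry over to the small SHANK counts. Alternatives were other thresholds, list lengths, gene regions, overlaps and surroundings.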

Additional observations from a re-analysis of the deposited data

How the results depend on the processing

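Of 100 recomputed values 91 stayed within the counting interval of the reported value, or within 1.5 times a count. This tally is a weak check, since the intervals are wide and several settings count the same peaks again. It also includes the contrast SHANK2 was picked on. The SHANK2 value in K rep KO against WT counted as staying although it went from 0.52 to 1.72 with −log10 q of 5 or more. No called value changed sides, but the calls of SHANK2 ended under the settings named beside them. Values did not leave their interval with the gene body alone, with 10 kb on either side, by summits, with peaks within 1 kb joined, by covered bases, or with the rest of chromosome 11 as surroundings. With lists cut to the same length the relative ratio of SHANK2 was 1 in K-KD against EV and 1.17 in EV against WT, and that of SHANK3 was 0.333 in K rep KO against WT. With −log10 q of 5 or more that of SHANK3 was 0 in K rep KO against WT and 0 in K non-rep KO against WT. With fold enrichment of 4 or more that of SHANK1 was 0 in K-KD against EV. At 50% reciprocal overlap 2 rather than 5 SHANK2 peaks of K-KD were shared with EV, 1 rather than 3 of K rep KO with K non-rep KO, and 0 rather than 2 of K rep KO with WT. The cause was not tested. SHANK1 gave no ratio against WT or K non-rep KO, where it held no peak, nor in K-KD against EV with −log10 q of 5 or more or equal lengths, and neither did SHANK3 between the knockouts with −log10 q of 5 or more. No paired analysis was possible because each condition has 1 list. Pileups of 5 to 15 reads at most sites limit what an absent peak can show.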
